A study of Mus musculus with 23 samples.

Results

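Macrophages taken from around a poly(ethylene glycol) (PEG) hydrogel 28 days after it was placed under the skin were compared with macrophages from animals without an implant. The libraries were chosen by their labels, and they are 5 of the 23 in the series: 3 at day 28 (A, B and C) and 2 controls (A and B). The day 28 group is labelled as subcutaneous tissue of wildtype C57BL/6J mice with a PEG hydrogel implant at day 28. The control group is labelled as subcutaneous tissue of the same strain with the treatment none. The design note gives the macrophages as Cx3cr1+ and Ly6C-low, and the libraries as biological replicates. The sources used here give neither the age and sex of the mice nor whether animals were pooled. Macrophages at days 2 and 14 after implantation (3 libraries each) were used as further points of comparison. Tissue and gel were digested with Liberase TM, an enzyme blend that frees cells, and RNA was amplified with the SMART-Seq v4 kit for low input and sequenced as single reads.

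An implanted material sets off the foreign body response. Proteins adsorb to its surface, neutrophils and monocytes arrive, and macrophages settle on it, may fuse into foreign body giant cells, and direct fibroblasts to wall the material off in a collagen capsule. Subcutaneous tissue without an implant holds resident macrophages, long-lived cells that take up debris and are marked by scavenger receptors and C-type lectins. The question the comparison addresses is how the macrophages' gene expression at a late stage of this response differs from that of the tissue without an implant.

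The libraries held 10898529 and 26053997 counts in controls A and B, and 23074988, 28193280 and 29747906 counts at day 28 in A, B and C. At these depths 3 counts correspond to 0.275 and 0.115 CPM in the controls and to 0.130, 0.106 and 0.101 CPM at day 28 before scaling, and lower values cannot be told from 0. Values below are CPM, counts scaled to a common library size with TMM factors, in the order A, B, C for day 28 and A, B for the controls. CPM are not divided by transcript length, so they compare libraries for 1 gene and not genes with each other. Sphk1, Nt5e, Actn1 and Ass1, described below, had a control library at or under 3 counts. The size of their log2 fold changes therefore rests on few control counts. Reads from mitochondrially encoded genes made up 2.63%, 2.14% and 2.71% of counts at day 28 and 1.25% and 0.746% in the controls. The part of this difference in the results was not tested.

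Library C stood apart from A and B at day 28. Its rank correlation across genes was 0.916 with A and 0.930 with B, against 0.948 between A and B. With the 3 day 14 libraries it was 0.940, 0.951 and 0.954, whereas A had 0.932, 0.921 and 0.923 and B 0.942, 0.935 and 0.928. Correlations between day 28 and control libraries ran from 0.869 to 0.892, and that between the controls was 0.947. Counts of called genes that move by over 1.5 times when 1 library is left out are given with their value without it.

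Every day 28 and control library carried the transcripts that define macrophages. All 15 listed markers were present in all 5 libraries. Csf1r, the receptor for the growth factor that macrophages live on, stood at 2399.8, 2435 and 1536 CPM at day 28 and 2921 and 1813 CPM in the controls (log2 fold change -0.16 ± 0.44, adjusted p = 0.877). Adgre1, which encodes F4/80, stood at 758, 746 and 555 CPM at day 28 and 945 and 741 CPM in the controls (log2 fold change -0.30 ± 0.27, adjusted p = 0.547). Neither passed the test. Of the list, 4 of 15 rose, led by Cd14, the endotoxin co-receptor, at 4437, 3557 and 3153 CPM at day 28 against 383 and 501 CPM in the controls (log2 fold change 3.07 ± 0.29, adjusted p = 7.29e-07). Cd63, Mpeg1 and Lyz2 also rose, with Cd63 and Mpeg1 failing without control B and Cd63 and Lyz2 without control A, so that 2 of 15 rose without control A and 2 without control B. Across all 16260 genes tested 6.57% rose.

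Of the genes of the sort, Cx3cr1, the fractalkine receptor, had 169, 226 and 90.1 CPM at day 28 and 136 and 57.6 CPM in the controls and did not pass (log2 fold change 0.74 ± 0.41, adjusted p = 0.283). Ly6c2, the monocyte surface antigen by which the gate sets macrophages apart, was lower at day 28 at 5.49, 15.01 and 62.4 CPM than in the controls at 236 and 120.3 CPM (log2 fold change -2.69 ± 0.69, adjusted p = 0.015). Libraries A and B at day 28 were the lowest and library C lay closer to the controls. Ly6c2 did not pass without control A or day 28 B (adjusted p 0.000384 to 0.147 with 1 library left out). The reads of Ly6c2 and its near-identical neighbour Ly6c1 may have been split between them by the counting.

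Markers of other cell types were also counted, and only some differed between the groups. Across all genes tested 6.57% were higher and 3.99% lower at day 28. Neutrophil markers summed to 122, 195 and 347 CPM at day 28 and 102 and 69.8 CPM in the controls, with 4 of 14 higher at day 28 and 2 without control A, control B or day 28 C. Ly6g, which defines neutrophils, had 0 counts in all 5 libraries and Camp, Ngp, Ltf, Mpo and Elane were under 1 CPM in each. B cell markers summed to 149.9, 87.7 and 136 CPM at day 28 and 839.7 and 1176 CPM in the controls, mostly Ighm, the heavy chain of IgM, with 2 of 8 lower and 1 without control A, control B or day 28 B. Fibroblast markers summed to 72.3, 129 and 35.5 CPM against 216 and 279 CPM, with 2 of 18 lower and neither of these passing when any 1 library was left out. Dendritic cell markers summed to 92.5, 45.3 and 196 CPM against 203 and 287 CPM, with 2 of 13 lower. The number lower was 0 without control B, 1 without day 28 B and 4 without day 28 C. T and NK cell markers summed to 22.002, 24.5 and 17.6 CPM against 17.6 and 24.7 CPM, with 0 of 16 called and 1 higher without day 28 B. The part of these cells in the results was not tested, and in sorted bulk samples fewer cells of a type and less RNA per cell cannot be told apart.

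At day 28, 1717 of 16260 genes tested (10.6%) differed from the controls at an adjusted p under 0.05 by edgeR's quasi-likelihood test, 6.57% higher and 3.99% lower. The median log2 fold change of all genes tested was -0.04. Counts of list members below are to be read beside these shares of all genes, 6.57% higher and 3.99% lower. The libraries of the groups did not overlap for 40% of genes, so a lack of overlap alone says little here. Without control A 809 genes were called and without control B 689, of which 778 and 664 were among the 1717 in the same direction. Without day 28 A, B or C the counts were 1278, 1234 and 1880. In all 5 of these analyses 481 of the 1717 were called in the same direction. A fit to these 5 libraries alone called 693 genes. Limma-voom called 3134, of which 45.4% were higher, against 62.3% of the 1717, so that lower genes outnumbered higher ones with that tool. Of genes described below, the fit to these 5 libraries alone did not call Atp6v0c, Atp6v1c1, Calr, Gclm, Hif1a, Inhba, Itgax, Lifr, Ly6c2, P2rx1, Runx2, Slc39a14 or Slc40a1. Their adjusted p in that fit ran from 0.0528 for Itgax to 0.141 for Ly6c2. DESeq2 did not call Epor or Tmod1 and gave no adjusted p for Cd209f, and limma-voom did not call Ptges (adjusted p = 0.0513).

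**Figure D1:**
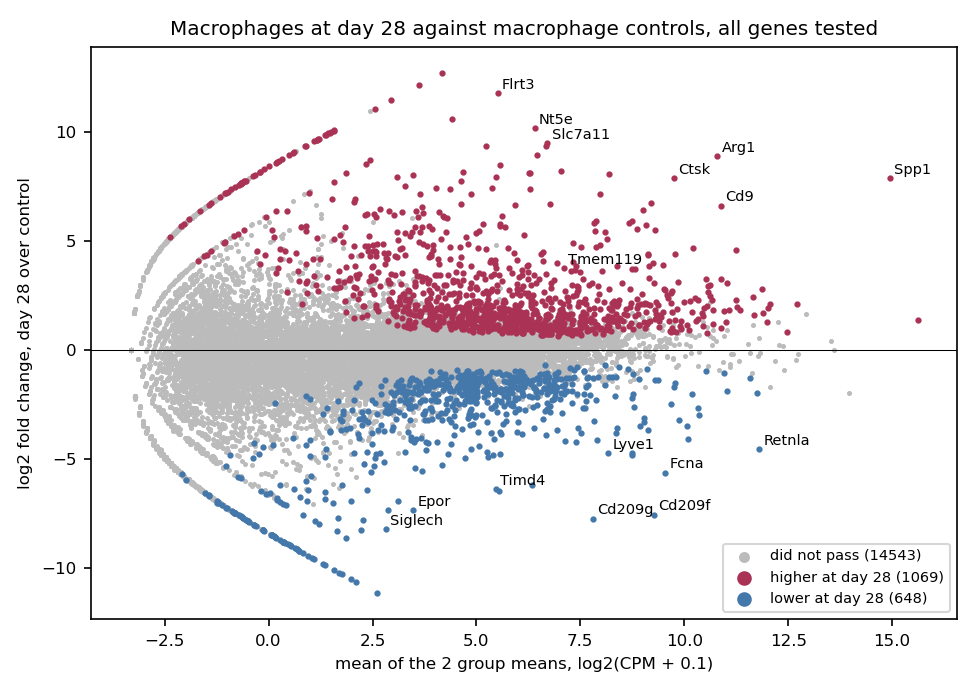
Each point is a gene tested. The x axis is the mean of its day 28 and control group means on a log2 CPM scale. The y axis is its log2 fold change at day 28 against control, and coloured points have an adjusted p under 0.05. Higher genes (6.57%) outnumber lower ones (3.99%) here, though not among the calls of limma-voom, and the curved edges of points at low expression are genes with 0 counts in one of the groups.

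The largest rises were of genes with no or few counts in the controls. Nos2, which makes nitric oxide from arginine, had 9.70, 9.78 and 88.0 CPM at day 28 and 0 counts in both controls, at least 628-fold higher when 3 counts over the controls are taken as the floor. Library C at 88.0 CPM was well above A and B. Prokr1, a prokineticin receptor coupled to G proteins, had 28.1, 8.69 and 8.71 CPM and 0 counts in the controls, at least 226-fold higher (adjusted p = 0.000335). Rgs16, which shuts off signalling by such receptors, had 21.3, 7.73 and 5.75 CPM and 0 counts in the controls, at least 173-fold higher (adjusted p = 0.000234). These bounds cover counting error only. Cdh1, the adhesion molecule E-cadherin, had 40.6, 18.1 and 13.7 CPM and 0 counts in the controls, at least 366-fold higher, but Cdh1 did not pass without control B (adjusted p 0.0035 to 0.0593 with 1 library left out).

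Flrt3, a membrane protein of cell adhesion and axon guidance, had 114, 74.9 and 83.8 CPM at day 28 against 0 and 0.0300 CPM in the controls, a ratio of 4322 with a counting interval of 775 to 170700 (adjusted p = 8.5e-07). Slc7a11, the cystine importer that feeds glutathione synthesis, had 185, 209 and 231 CPM against 0.196 and 0.330 CPM (log2 fold change 9.52 ± 0.66, adjusted p = 2.69e-08). All 3 day 28 libraries lay far above both controls for both genes. Tnfrsf9, the co-stimulatory receptor 4-1BB, had 79.6, 103 and 424 CPM against 0.261 and 0.330 CPM (log2 fold change 9.36 ± 1.02, adjusted p = 4.17e-06). Sphk1, which makes the lipid mediator sphingosine 1-phosphate, had 103, 86.5 and 34.1 CPM against 0.196 and 0.0599 CPM (log2 fold change 9.36 ± 0.74, adjusted p = 1e-07). For Tnfrsf9 library C was again the highest, and for Sphk1 it was the lowest.

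The largest falls included 2 lectins of the Cd209 family. Cd209f and Cd209g, C-type lectins related to human DC-SIGN, had 12.6, 3.39 and 3.65 CPM and 2.13, 2.05 and 2.06 CPM at day 28 against 964 and 1483 CPM and 369.7 and 517 CPM in the controls (log2 fold changes -7.55 ± 1.24, adjusted p = 0.000373, and -7.73 ± 0.95, adjusted p = 1.66e-05). The Cd209 genes are close paralogs, and the sources used here do not say how reads that match several of them were treated. Enpep, the aminopeptidase that cleaves angiotensin II, had 0.473, 2.54 and 0.0344 CPM against 90.9 and 93.4 CPM (log2 fold change -6.48 ± 1.20, adjusted p = 0.00113). Smim10l2a, a small membrane protein, had 0 counts in all 3 day 28 libraries against 10.5 and 13.6 CPM, at least 331-fold lower (adjusted p = 0.00822). Siglech, a lectin of plasmacytoid dendritic cells and some macrophages, fell to 0 counts in 2 of the day 28 libraries from 9.21 and 18.5 CPM, and Epor, the erythropoietin receptor, fell from 13.7 and 30.5 CPM to 0, 0 and 0.379 CPM. Neither passed without control B, with an adjusted p of 0.0635 for Siglech and 0.0635 for Epor, the highest when 1 library was left out (lowest 0.0148 and 0.000795). Afap1l1, Adam33 and Tmod1 also belong to the 10 largest falls, each under 1 CPM in every day 28 library. Afap1l1 did not pass without control A, control B, day 28 B or day 28 C (adjusted p 0.0257 to 0.0775 with 1 library left out). Adam33 did not pass without control A, control B, day 28 A or day 28 C (adjusted p 0.0177 to 0.094 with 1 library left out), and Tmod1 did not pass without control A, control B, day 28 A or day 28 C (adjusted p 0.0371 to 0.16 with 1 library left out).

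**Figure D2:**
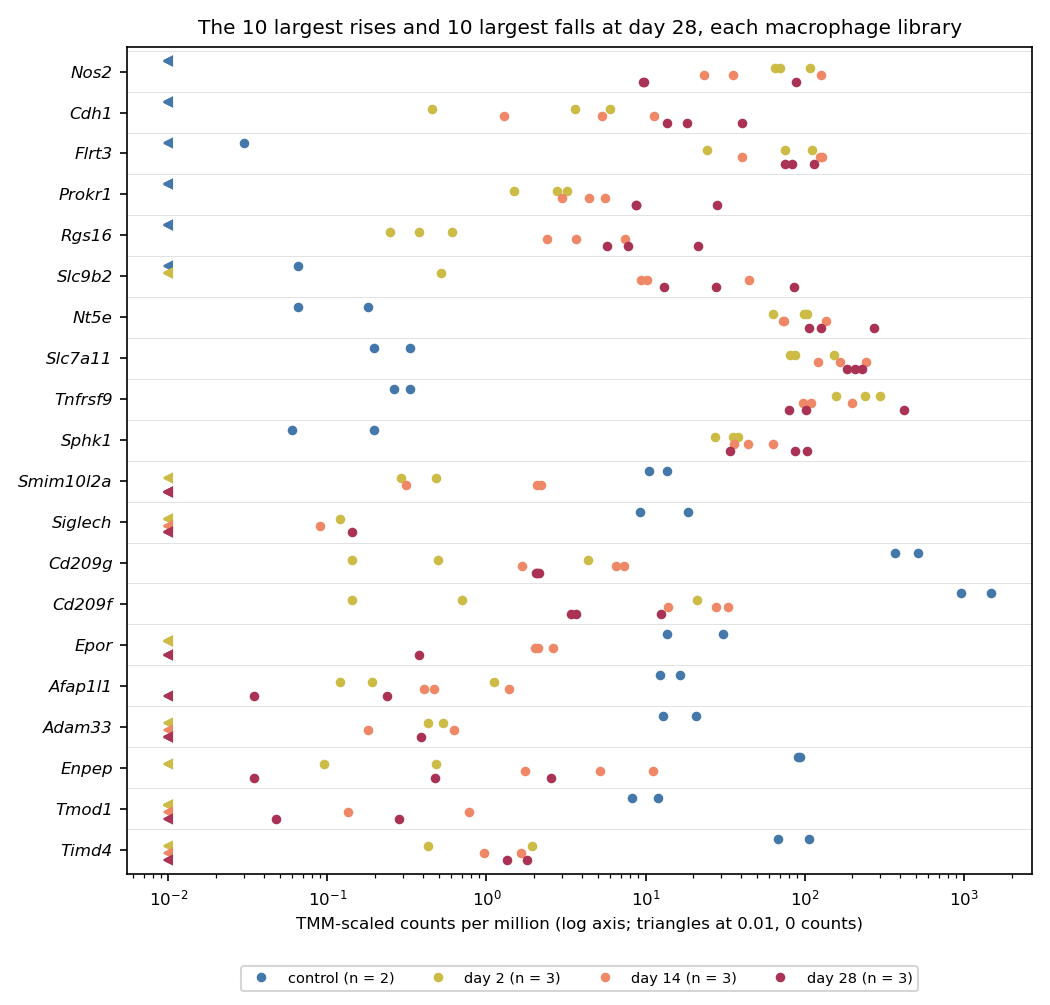
CPM (log axis) of the 10 largest rises (top) and 10 largest falls (bottom) at day 28 in every macrophage library; triangles at the left edge mark 0 counts. The day 28 and control points do not overlap for any of the 20 genes, which the rule for naming them required, and for most of them the day 2 and day 14 points lie on the side of day 28.

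Genes of resident tissue macrophages were lower as a group. Of 32 tested members 24 fell and 1 rose, with a median log2 fold change of -3.05 against -0.04 for all genes, and 17 to 23 fell when 1 library was left out. Their mean level in log2(CPM + 1) was 6.07, 5.52 and 6.19 at day 28, 5.88, 6.09 and 6.42 at day 2, 6.91, 6.63 and 6.45 at day 14 and 8.73 and 9.07 in the controls. Every implant library was below both controls. Lyve1, a hyaluronan receptor of macrophages that line vessels, fell to 36.8, 8.37 and 17.4 CPM from 446 and 667 CPM (log2 fold change -4.74 ± 0.96, adjusted p = 0.00259). Cd163, the scavenger receptor for haemoglobin bound to haptoglobin, fell to 45.6, 23.8 and 60.8 CPM from 517 and 312 CPM (log2 fold change -3.26 ± 0.68, adjusted p = 0.00326).

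Gas6, a bridge between dying cells and the receptors Axl and Mertk, fell to 17.6, 8.26 and 61.6 CPM from 265 and 1376 CPM (log2 fold change -4.81 ± 0.88, adjusted p = 0.00107). Cbr2, a carbonyl reductase, fell to 89.0, 66.3 and 212 CPM from 1454 and 2642 CPM (log2 fold change -4.07 ± 0.54, adjusted p = 3.84e-05). Timd4, the phosphatidylserine receptor of long-lived macrophages, stood at 1.80, 0 and 1.34 CPM against 68.1 and 107 CPM (log2 fold change -6.39 ± 1.42, adjusted p = 0.00544), and Timd4 did not pass without control B (adjusted p 0.0151 to 0.0601 with 1 library left out). Mrc1, the mannose receptor, had 405, 376 and 437 CPM against 1601 and 1014 CPM (log2 fold change -1.69 ± 0.48, adjusted p = 0.0272), and Mrc1 did not pass without control A, control B, day 28 A or day 28 B (adjusted p 0.0447 to 0.246 with 1 library left out). The groups did not overlap for Gas6, Cbr2 or Timd4.

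Not every member of the group fell. Tmem119, best known as a microglial surface protein, rose to 199, 232 and 342 CPM from 25.2 and 12.3 CPM (log2 fold change 3.78 ± 0.52, adjusted p = 6.41e-05). C1qa, a subunit of complement C1q, had 1255, 1416 and 1120.0 CPM at day 28 and 2122 and 2614 CPM in the controls (log2 fold change -0.91 ± 0.33, adjusted p = 0.0893). Pf4, the chemokine platelet factor, had 593, 524 and 1003 CPM and 815 and 1452 CPM (log2 fold change -0.68 ± 0.52, adjusted p = 0.457). C1qa and Pf4 did not pass the test.

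**Figure D3:**
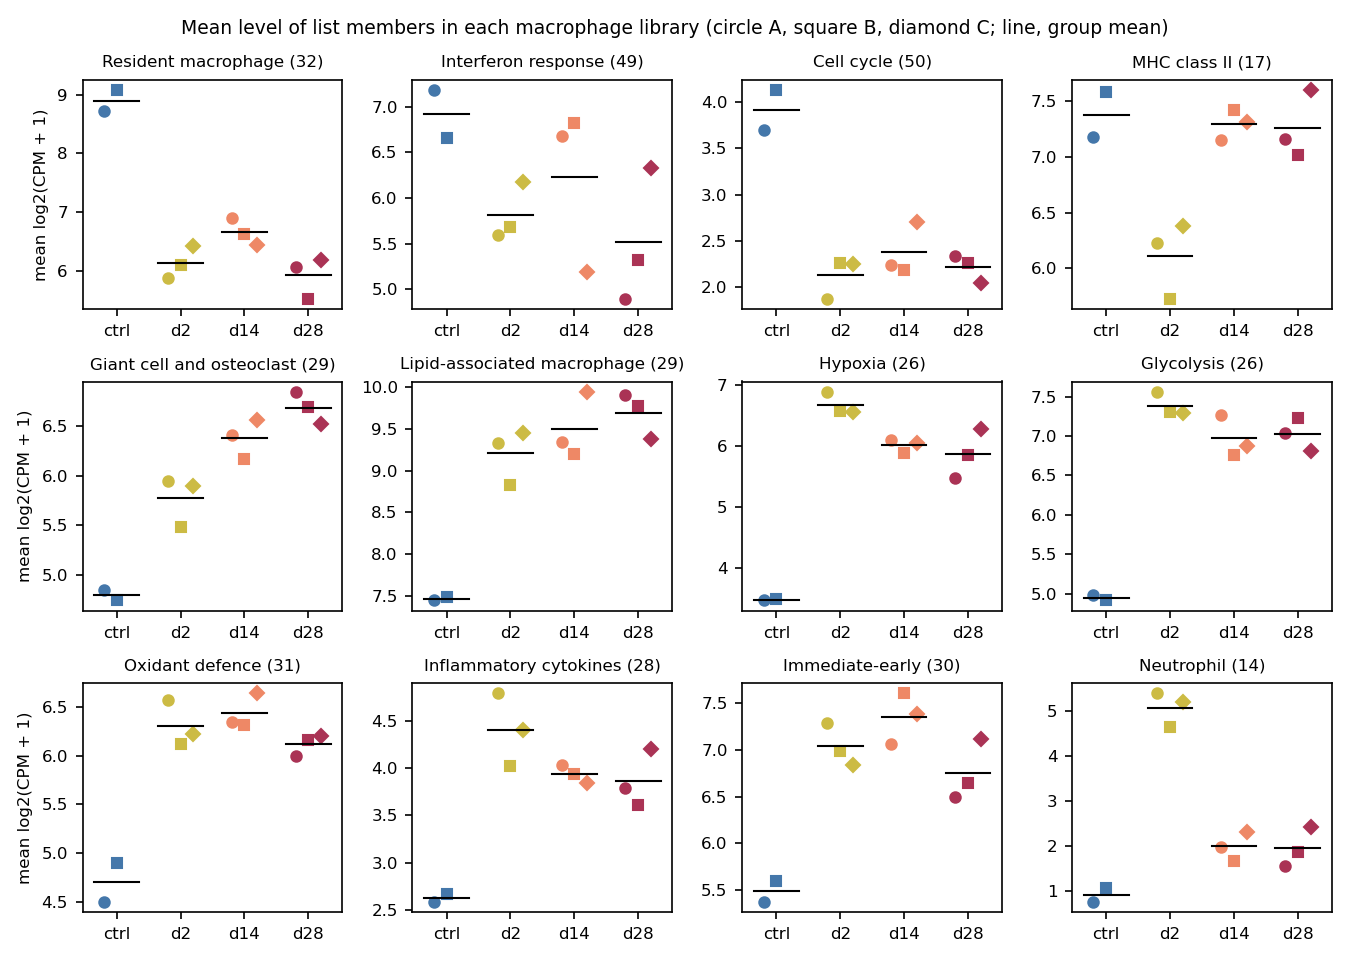
Each panel gives the mean of log2(CPM + 1) over the tested members of a gene list in every macrophage library (circle A, square B, diamond C; line, group mean) for controls and days 2, 14 and 28. Resident macrophage genes lie below both controls in every implant library, and interferon-response genes at day 28 are highest in library C.

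Interferon-response genes were lower in part, and the number called depended on library C. Of 49 tested members 9 fell and 0 rose with all libraries, and without library C 25 fell. Without day 28 A 1 fell, and without day 28 B, control A or control B 3 fell. The number was 4 in the fit to the 5 libraries alone, 5 with macrophage libraries only, 16 with the length covariate, 17 with DESeq2, 25 without the filter on low counts and 29 with limma-voom. The members summed to 4284, 5504 and 11026 CPM at day 28 and to 14676 and 15792 CPM in the controls, so all 3 day 28 libraries were lower and C was nearest to the controls. Oas2, which senses viral RNA, fell to 19.02, 15.2 and 16.97 CPM from 467 and 166 CPM (log2 fold change -4.21 ± 0.60, adjusted p = 8.2e-05) and passed without any 1 library. Stat2, a transducer of interferon signalling, fell to 45.5, 58.3 and 45.7 CPM from 269 and 107 CPM (log2 fold change -1.92 ± 0.50, adjusted p = 0.0158), and Stat2 did not pass without control A or day 28 A (adjusted p 0.0192 to 0.342 with 1 library left out). Irf7, the factor that amplifies the response, had 181, 339 and 492 CPM against 723 and 549 CPM and did not pass (log2 fold change -0.91 ± 0.51, adjusted p = 0.284).

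Genes of cell division were lower in part. Of 50 tested members 9 fell and 0 rose, and the number was 3 without control B, 4 without day 28 B and 5 without control A or day 28 C. It was 19 with DESeq2, 22 without the filter on low counts and 28 with limma-voom. Cenpf, a kinetochore protein, had 0 counts in all 3 day 28 libraries against 7.64 and 7.85 CPM in the controls, at least 204-fold lower (adjusted p = 0.00921). Kif23, a motor of cytokinesis, fell to 0.237, 1.59 and 1.38 CPM from 24.5 and 28.3 CPM (log2 fold change -4.61 ± 0.92, adjusted p = 0.00234). Mki67, the usual marker of cycling cells, had 4.16, 1.45 and 5.23 CPM against 23.8 and 18.0 CPM and did not pass (log2 fold change -2.53 ± 0.98, adjusted p = 0.11).

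Genes associated with monocytes moved both ways. Of 26 tested members of the classical monocyte list 11 rose and 5 fell. Without control A 6 rose and 1 fell, and without control B 6 rose and 2 fell. Without day 28 A 2 fell, and without day 28 B 1 fell. In the fit to the 5 libraries alone 6 rose and 2 fell, and 2 fell with macrophage libraries only and 3 with the replicate block. Thbs1, the matrix protein thrombospondin 1, rose to 1236, 1188 and 1056 CPM from 18.4 and 3.63 CPM (log2 fold change 6.74 ± 0.99, adjusted p = 0.000118). Vcan, the proteoglycan versican, rose to 33.5, 80.9 and 95.2 CPM from 1.96 and 0.689 CPM (log2 fold change 5.78 ± 0.77, adjusted p = 3.97e-05), and Fn1, fibronectin, to 5403, 6538 and 1934 CPM from 303 and 84.3 CPM (log2 fold change 4.58 ± 0.77, adjusted p = 0.000461). These 3 encode secreted matrix proteins. Ifitm6, a membrane protein of monocytes, fell to 17.8, 11.4 and 32.9 CPM from 86.3 and 115 CPM (log2 fold change -2.28 ± 0.38, adjusted p = 0.000475). Ccr2, the receptor that brings monocytes out of the blood, had 545, 700.0 and 1559 CPM against 1441 and 835 CPM and did not pass (log2 fold change -0.28 ± 0.43, adjusted p = 0.743).

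Genes that respond to low oxygen and genes of glycolysis were raised together. Of 26 tested hypoxia genes 17 rose and 0 fell, with a median log2 fold change of 2.10. Of 26 tested glycolysis genes 19 rose and 0 fell, with a median of 2.31. Leaving out 1 library gave 13 to 17 hypoxia genes and 14 to 19 glycolysis genes, with 1 of each list falling without day 28 B, and the fit to the 5 libraries alone gave 11 hypoxia genes. In background, the transcription factor HIF-1 binds the letters ACGTG near such genes when oxygen is low. The 250 bases before the 5′-most RefSeq start (GRCm38.p6) are shown for 4 members with that core. Matches are in capitals and read CACGT where the core lies on the opposite strand. They are chr4:119108495-119108744 (+ strand) for Slc2a1, chr12:54203875-54204124 (- strand) for Egln3, chr7:138909507-138909756 (- strand) for Bnip3 and chrX:106186850-106187099 (+ strand) for Pgk1, each 5′ to 3′ on the gene's strand.
Slc2a1: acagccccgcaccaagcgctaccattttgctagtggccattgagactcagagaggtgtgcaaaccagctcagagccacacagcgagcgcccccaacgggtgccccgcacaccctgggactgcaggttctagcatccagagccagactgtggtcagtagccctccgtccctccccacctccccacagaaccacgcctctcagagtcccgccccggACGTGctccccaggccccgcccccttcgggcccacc
Egln3: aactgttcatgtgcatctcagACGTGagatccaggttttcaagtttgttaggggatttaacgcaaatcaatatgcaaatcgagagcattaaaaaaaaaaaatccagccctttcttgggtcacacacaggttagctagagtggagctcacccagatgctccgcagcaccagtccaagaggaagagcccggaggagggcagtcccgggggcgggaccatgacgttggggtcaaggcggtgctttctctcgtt
Bnip3: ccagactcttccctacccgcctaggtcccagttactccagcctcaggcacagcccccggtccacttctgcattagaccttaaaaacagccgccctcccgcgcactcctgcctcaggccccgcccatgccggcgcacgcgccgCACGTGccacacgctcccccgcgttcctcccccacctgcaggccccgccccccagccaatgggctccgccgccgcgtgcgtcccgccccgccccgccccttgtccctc
Pgk1: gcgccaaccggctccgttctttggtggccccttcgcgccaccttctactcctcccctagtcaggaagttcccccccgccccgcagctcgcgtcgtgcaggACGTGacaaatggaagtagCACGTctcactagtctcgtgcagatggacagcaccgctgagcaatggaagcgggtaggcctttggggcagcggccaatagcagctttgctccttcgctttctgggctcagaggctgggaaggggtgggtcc
The core stands 36 bases before the start in Slc2a1 and 229 in Egln3, and 150 and 131 in Pgk1. In Bnip3 the matches at 108 and 107 bases before the start overlap on opposite strands in the palindrome CACGTG. Searched on both strands, ACGTG was in 10 of 21 hypoxia windows (47.6%) and 12 of 25 glycolysis windows (48%), and in 16.5% of all 27025 windows and 21.1% of those of tested genes. It was in 10 of 26 windows of immediate-early genes (38.5%). The windows of Hilpda and Aldoa, described below, did not hold ACGTG. A match in these letters is a description and not a binding site.

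Egln3, a prolyl hydroxylase that marks HIF for destruction, rose to 37.3, 71.9 and 174 CPM at day 28 from 0 and 0.420 CPM in the controls (log2 fold change 8.48 ± 1.10, adjusted p = 3.13e-05). Vegfa, the growth factor of blood vessels, rose to 67.1, 86.7 and 311 CPM from 0.0653 and 0.899 CPM (log2 fold change 8.12 ± 0.96, adjusted p = 1.14e-05). Bnip3, a receptor for the removal of mitochondria, rose to 216, 241 and 461 CPM from 23.3 and 24.1 CPM (log2 fold change 3.69 ± 0.44, adjusted p = 1.32e-05). Library C was the highest for these 3 genes, and A and B also exceeded both controls. Hif1a, the oxygen-regulated subunit itself, rose to 131, 213 and 567 CPM from 35.2 and 42.7 CPM (log2 fold change 2.96 ± 0.56, adjusted p = 0.00129). Hilpda, which blocks fat breakdown at the lipid droplet, rose to 532, 602 and 1373 CPM from 12.5 and 15.2 CPM (log2 fold change 5.91 ± 0.56, adjusted p = 7.29e-07). Ndrg1, a gene induced by hypoxia and metal depletion, rose to 89.6, 116 and 135 CPM from 4.70 and 5.66 CPM (log2 fold change 4.45 ± 0.51, adjusted p = 8.3e-06).

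The glycolytic enzymes rose along most of the pathway. Aldoa, the aldolase, rose to 3139.8, 3166 and 3925 CPM from 308 and 393 CPM (log2 fold change 3.28 ± 0.31, adjusted p = 7.18e-07). Pgk1, phosphoglycerate kinase, rose to 31.5, 39.97 and 65.9 CPM from 4.18 and 5.60 CPM (log2 fold change 3.22 ± 0.38, adjusted p = 1.14e-05), and Tpi1, triosephosphate isomerase, to 1043, 1152 and 1627 CPM from 165 and 199.7 CPM (log2 fold change 2.81 ± 0.30, adjusted p = 3.5e-06). For Aldoa, Pgk1 and Tpi1 the lowest day 28 library exceeded the higher control. Aldoc, Slc16a3 (the lactate exporter), Pgam1, Pkm, Ldha, Gapdh and Gpi1 rose too, with log2 fold changes of 4.87, 4.74, 3.09, 2.94, 2.32, 2.16 and 2.12. In the pentose phosphate and serine pathways, which branch from glycolysis, 6 of 14 rose, and 3 without control A or control B or in the fit to the 5 libraries alone, and 1 fell without day 28 C. Pgd, 6-phosphogluconate dehydrogenase, rose to 577, 634 and 363 CPM from 135 and 85.0 CPM (log2 fold change 2.25 ± 0.36, adjusted p = 0.000258).

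Arginine-handling enzymes rose on both competing branches. Of 16 tested members 7 rose and 0 fell, and 4 without control B. Arg1, the arginase that turns arginine into ornithine and urea, rose to 2623, 2378 and 5625 CPM from 5.23 and 9.38 CPM (log2 fold change 8.91 ± 0.87, adjusted p = 1.03e-06). Arg2, its mitochondrial counterpart, rose to 24.6, 21.6 and 43.0 CPM from 0.523 and 0.689 CPM (log2 fold change 5.58 ± 0.69, adjusted p = 1.95e-05). Ass1, which rebuilds arginine from citrulline, rose to 3.17, 7.56 and 9.53 CPM from 0.196 and 0.0899 CPM (log2 fold change 5.63 ± 0.71, adjusted p = 2.22e-05). Library C was the highest of the day 28 libraries for Nos2, Arg1, Arg2 and Ass1, and all 3 exceeded both controls.

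Genes of defence against oxidants rose with them. Of 31 tested members 14 rose and 0 fell, with 7 rising without control A. As background, many are targets of the factor NRF2, whose element can hold the letters TGACNNNGC. The match in Gclm is shown with its flanks because this enzyme is a classic target. It lies on the strand opposite the gene, so that the capitals read as its reverse complement, at chr3:122245411-122245443 (RefSeq, GRCm38.p6).
Gclm: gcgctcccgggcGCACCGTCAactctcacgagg
TGACNNNGC, searched on both strands, was in 6 of 25 windows of the list (24%), in 10.1% of all windows and in 12.2% of those of tested genes, and in 8 of 26 windows of immediate-early genes (30.8%). The windows of Slc7a11, Srxn1 and Txnrd1 did not hold these letters. Forms with G in place of the C, such as TGAGTCAGC in the Srxn1 window, were not searched. Gclm, a subunit of the enzyme that starts glutathione synthesis, stood at 16.2, 24.1 and 76.0 CPM against 4.18 and 4.65 CPM (log2 fold change 3.13 ± 0.82, adjusted p = 0.0167), and Gclm did not pass without control A, control B or day 28 C (adjusted p 0.0113 to 0.13 with 1 library left out). Prdx6, a peroxiredoxin, rose to 591, 634 and 1281 CPM from 53.3 and 74.7 CPM (log2 fold change 3.71 ± 0.40, adjusted p = 3.87e-06). Txnrd1, thioredoxin reductase, rose to 103, 165 and 154 CPM from 22.99 and 25.4 CPM (log2 fold change 2.54 ± 0.40, adjusted p = 0.00025). Hmox1, heme oxygenase, had 549, 847 and 836 CPM against 394 and 547 CPM and did not pass (log2 fold change 0.66 ± 0.37, adjusted p = 0.284).

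Genes of lipid-associated macrophages, a state described in fat and in plaques where cells clear lipid, rose in most members. Of 29 tested 20 rose and 0 fell, with a median log2 fold change of 1.93, and 14 to 21 rose when 1 library was left out. Olr1, the receptor for oxidised LDL, rose to 76.4, 106 and 107 CPM from 1.37 and 1.35 CPM (log2 fold change 6.15 ± 0.46, adjusted p = 4.29e-08). Cd9, a tetraspanin, rose to 5173, 3084 and 3014 CPM from 42.1 and 33.5 CPM (log2 fold change 6.64 ± 0.63, adjusted p = 7.29e-07). Cd36, a fatty acid and lipoprotein receptor, rose to 3738, 2547 and 2075 CPM from 309 and 387 CPM (log2 fold change 3.0 ± 0.60, adjusted p = 0.00249). The groups did not overlap for Olr1, Cd9 or Cd36.

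Fabp5, which carries fatty acids in the cytosol, rose to 276, 261 and 326 CPM from 17.4 and 28.2 CPM (log2 fold change 3.65 ± 0.69, adjusted p = 0.00144). Lipa, the lysosomal acid lipase, rose to 1154, 937 and 584 CPM from 249 and 161 CPM (log2 fold change 2.12 ± 0.40, adjusted p = 0.00133). Gpnmb, a glycoprotein of lysosome-rich macrophages, stood at 4239, 2047 and 559 CPM against 125 and 53.6 CPM (log2 fold change 4.68 ± 1.05, adjusted p = 0.00593), and Gpnmb did not pass without control B (adjusted p 0.00247 to 0.0955 with 1 library left out). Trem2, the lipid receptor that gives this state its usual name, had 1161, 855 and 519 CPM against 282 and 317 CPM and did not pass (log2 fold change 1.496 ± 0.48, adjusted p = 0.0529), nor did Apoe, apolipoprotein E, with 1755, 7494 and 10552 CPM against 16896 and 34091 CPM (log2 fold change -1.95 ± 0.79, adjusted p = 0.13). Of 28 tested genes of sterol and fatty acid synthesis 3 rose, beside 6.57% of all genes tested. The number rising was 8 without day 28 C and 1 without control B or day 28 A. The number was 1 in the fit to the 5 libraries alone, 5 with limma-voom, 6 with the length covariate and 7 with DESeq2 or without the filter, and 1 fell with limma-voom or without day 28 C. Scd2, a fatty acid desaturase, was among them at 173, 274 and 114 CPM against 12.6 and 4.05 CPM (log2 fold change 4.503 ± 0.62, adjusted p = 6.41e-05).

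**Figure D4:**
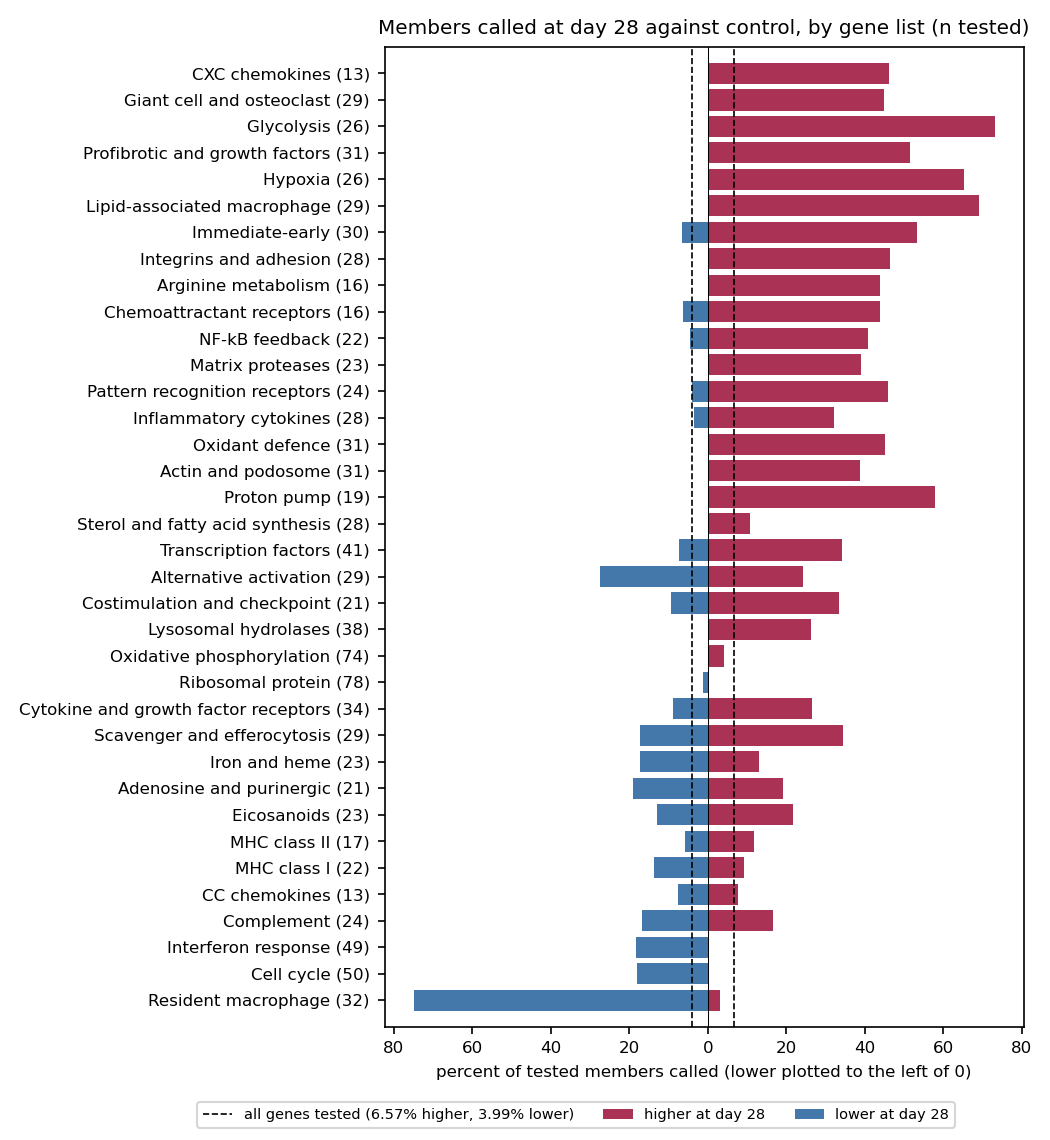
Bars give the percent of tested members of each gene list that were called higher (right) or lower (left) at day 28 against control, ordered by the list's median log2 fold change; dashed lines mark the percent of all genes tested (6.57% higher, 3.99% lower). Among the lists plotted, glycolysis, lipid-associated and hypoxia genes have the longest bars to the right and resident macrophage genes the longest to the left.

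Lysosomal genes rose in part. Of 38 tested hydrolases 10 rose and 0 fell. The number rising was 6 without control A or control B or in the fit to the 5 libraries alone, 16 with the length covariate and 17 with limma-voom, and 1 fell without day 28 C. Of 19 tested subunits of the proton pump that acidifies lysosomes and the space under osteoclasts 11 rose and 0 fell, with 5 without control A, 6 without control B and 3 in the fit to the 5 libraries alone. Ctss, cathepsin S, rose to 10688, 10983 and 11049.5 CPM from 2592 and 2457 CPM (log2 fold change 2.11 ± 0.29, adjusted p = 6.7e-05). Atp6v0c, the membrane ring of the pump, rose to 88.3, 77.7 and 104 CPM from 35.1 and 37.0 CPM (log2 fold change 1.32 ± 0.23, adjusted p = 0.000569), and Atp6v1c1 to 440.2, 306 and 225 CPM from 129 and 126 CPM (log2 fold change 1.35 ± 0.28, adjusted p = 0.00336). The CLEAR element bound by TFEB, TFE3 and MITF holds CACGTG, which contains the ACGTG above. It was in 8 of 30 hydrolase windows (26.7%), 3 of 14 pump windows (21.4%) and 1 of the 8 pump windows whose gene rose (12.5%). It was in 6.04% of all windows, 8.11% of those of tested genes and 6 of 26 of immediate-early genes (23.1%), and not in the windows of Ctsk and Acp5. Tfeb had 24.5, 26.1 and 22.7 CPM against 18.1 and 34.2 CPM and Tfe3 104, 127 and 68.5 CPM against 110.2 and 87.3 CPM, and neither passed (log2 fold changes -0.10 ± 0.46, adjusted p = 0.937, and 0.02 ± 0.37, adjusted p = 0.998). Mitf is not described here. RNA levels do not measure the activity of these factors, which was not tested.

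Genes of giant cells and osteoclasts, cells made by macrophage fusion, rose in 13 of 29 tested members with 0 falling, and in 8 without control A or control B. Cd44, a hyaluronan receptor, rose to 1304, 1077 and 1038 CPM from 87.6 and 54.6 CPM (log2 fold change 4.003 ± 0.38, adjusted p = 7.29e-07). Acp5, the tartrate-resistant phosphatase by which osteoclasts are stained, rose to 308, 325 and 288 CPM from 39.1 and 43.9 CPM (log2 fold change 2.89 ± 0.47, adjusted p = 0.000314). Dcstamp, a membrane protein needed for fusion, stood at 86.9, 64.9 and 64.7 CPM against 3.53 and 2.25 CPM (log2 fold change 4.65 ± 1.06, adjusted p = 0.00658), and Dcstamp did not pass without control A or control B (adjusted p 0.00883 to 0.097 with 1 library left out). Ocstamp, its partner, had 19.7, 20.2 and 11.7 CPM against 3.92 and 0.569 CPM and did not pass (log2 fold change 2.99 ± 1.01, adjusted p = 0.0647). Of 23 tested matrix proteases 9 rose, among them Mmp12, the macrophage elastase, to 1381, 655 and 1155 CPM from 36.6 and 3.57 CPM (log2 fold change 5.74 ± 1.14, adjusted p = 0.00213), and Mmp19 to 560.3, 510.1 and 318 CPM from 6.73 and 8.36 CPM (log2 fold change 5.93 ± 0.52, adjusted p = 3.38e-07). Slpi, an inhibitor of neutrophil elastase, rose to 165, 162 and 455 CPM from 0.588 and 1.08 CPM (log2 fold change 8.22 ± 0.87, adjusted p = 3.37e-06). Of 19 tested protease inhibitors 5 rose and 2 fell, with 3 rising without control A or control B, 8 rising without the filter on low counts, and 1 falling without control B or in the fit to the 5 libraries alone.

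Adhesion and cytoskeletal genes moved the same way. Of 28 tested integrins and adhesion molecules 13 rose and 0 fell, and 8 without control B and 6 in the fit to the 5 libraries alone. Itgax, which encodes CD11c, rose to 1041, 518 and 78.6 CPM from 19.8 and 11.8 CPM (log2 fold change 5.12 ± 0.92, adjusted p = 0.00087). Itgav, the integrin chain that binds vitronectin and latent TGF-beta, rose to 53.5, 63.0 and 96.9 CPM from 13.98 and 7.91 CPM (log2 fold change 2.71 ± 0.48, adjusted p = 0.000783). For Itgax library A was the highest at day 28 and library C the lowest, and all 3 exceeded both controls. Of 31 tested actin and podosome genes 12 rose and 0 fell, with 6 without control A and 7 without control B, and 1 fell without day 28 C. Actn1, the actin cross-linker alpha-actinin 1, rose to 17.03, 17.2 and 40.2 CPM from 0.0653 and 0.240 CPM (log2 fold change 7.15 ± 1.13, adjusted p = 0.000261). Myo1e, a myosin of podosomes, rose to 409, 409 and 83.7 CPM from 24.1 and 12.05 CPM (log2 fold change 4.06 ± 0.74, adjusted p = 0.00104). Of 19 tested tetraspanins 5 rose and 0 fell, with 1 falling without control A, day 28 A or day 28 C and 2 with the length covariate, DESeq2 or limma-voom. The rises included Cd82, to 79.6, 133 and 118 CPM from 26.8 and 22.4 CPM (log2 fold change 2.17 ± 0.30, adjusted p = 5.75e-05).

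Secreted factors that act on fibroblasts, vessels and wound repair rose in 16 of 31 tested members with 0 falling. There 1 fell without day 28 C and 5 with limma-voom. Osm, oncostatin M, rose to 229.7, 296 and 414 CPM from 24.2 and 18.6 CPM (log2 fold change 3.87 ± 0.36, adjusted p = 7.29e-07). Inhba, the subunit of activin A, rose to 9.08, 8.93 and 57.9 CPM from 0 and 0.420 CPM (log2 fold change 6.59 ± 1.25, adjusted p = 0.00145). Tgfb1, the main driver of collagen production, had 18.3, 35.9 and 137 CPM against 39.6 and 43.1 CPM and did not pass (log2 fold change 0.63 ± 0.67, adjusted p = 0.619).

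Inflammatory cytokine genes were raised in part. Of 28 tested members 9 rose and 1 fell. The number falling was 3 without day 28 C, 0 without any other 1 library, 3 with limma-voom and 4 with the length covariate. Il1b, interleukin-1 beta, rose to 657, 534 and 2508 CPM from 25.3 and 29.2 CPM (log2 fold change 5.498 ± 0.63, adjusted p = 8.3e-06), and its antagonist Il1rn to 875, 872 and 971 CPM from 22.8 and 15.2 CPM (log2 fold change 5.58 ± 0.47, adjusted p = 2.25e-07). Both were raised in every day 28 library. Tnf had 81.8, 42.8 and 26.9 CPM against 14.4 and 25.9 CPM (log2 fold change 1.32 ± 0.52, adjusted p = 0.114). Il10, a cytokine that damps inflammation, had 2.27, 3.04 and 8.16 CPM against 10.5 and 10.1 CPM (log2 fold change -1.19 ± 0.90, adjusted p = 0.45). Neither Tnf nor Il10 passed the test.

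CXC chemokines were called more often than CC chemokines, a difference that was not tested. Of 13 tested CXC chemokines 6 rose and 0 fell, with a median log2 fold change of 3.32, and 1.796 without day 28 B. Of 13 tested CC chemokines 1 rose and 1 fell, beside 6.57% and 3.99% of all genes tested. For these chemokines 0 rose without control A or in the fit to the 5 libraries alone, and 3 fell without day 28 C. Without the filter 3 CC chemokines rose and 3 fell, and 4 fell with the length covariate or limma-voom. Cxcl3, which attracts neutrophils, rose to 363, 147 and 1231 CPM from 1.57 and 2.64 CPM (log2 fold change 8.08 ± 0.99, adjusted p = 1.6e-05), and Cxcl1, of the same function, to 274, 96.4 and 171 CPM from 2.87 and 14.1 CPM (log2 fold change 4.39 ± 0.89, adjusted p = 0.00252). Ccl8 fell to 147, 109 and 269 CPM from 1136 and 2775 CPM (log2 fold change -3.48 ± 0.68, adjusted p = 0.00197). Ccl8 was lower in all 3 day 28 libraries than in either control. Of 16 tested chemoattractant receptors 7 rose and 1 fell, with 3 rising without control A, 2 without control B or in the fit to the 5 libraries alone, and 0 falling without control B or day 28 B. Cxcr4, the receptor for CXCL12, rose to 51.8, 67.4 and 117 CPM from 10.5 and 3.39 CPM (log2 fold change 3.51 ± 0.49, adjusted p = 7.04e-05).

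Receptors that sense microbes and damage rose in 11 of 24 tested members, with 1 falling. Trem1, which amplifies inflammatory signalling, rose to 112, 129 and 219.6 CPM from 0.131 and 0.839 CPM (log2 fold change 8.12 ± 0.89, adjusted p = 4.35e-06). Clec4e, the mincle lectin, rose to 966, 791 and 1311 CPM from 17.8 and 6.29 CPM (log2 fold change 6.41 ± 0.47, adjusted p = 4.28e-08), and Clec7a, the beta-glucan receptor dectin-1, to 1322, 1013 and 1736 CPM from 86.2 and 94.3 CPM (log2 fold change 3.91 ± 0.42, adjusted p = 3.76e-06). As background, these lectins activate the cell through motifs of the ITAM type. Nod1, a cytosolic sensor of bacterial peptidoglycan, fell to 3.45, 6.92 and 5.06 CPM from 75.0 and 34.5 CPM (log2 fold change -3.41 ± 0.56, adjusted p = 0.000373). Of 22 tested NF-kB feedback genes 9 rose and 1 fell, with 3 falling without day 28 C, 2 with limma-voom and 0 without control B or day 28 A. Tnfaip3, the A20 enzyme that restrains NF-kB, rose to 144, 100.4 and 122 CPM from 17.2 and 14.6 CPM (log2 fold change 2.94 ± 0.49, adjusted p = 0.000426). Of 30 tested immediate-early genes 16 rose and 2 fell, with 0 falling without control A and 1 without day 28 A or in the fit to the 5 libraries alone. Nr4a2, an orphan nuclear receptor, rose to 22.1, 34.5 and 58.7 CPM from 0.523 and 0.599 CPM (log2 fold change 6.07 ± 0.75, adjusted p = 1.82e-05), and Fos to 6348, 5737 and 4279.5 CPM from 1050.3 and 969 CPM (log2 fold change 2.43 ± 0.29, adjusted p = 1.14e-05). Hspa1b, a heat-shock protein with the near-identical copy Hspa1a, fell to 113, 311 and 316 CPM from 1819 and 946 CPM (log2 fold change -2.49 ± 0.59, adjusted p = 0.00921), and Hspa1b did not pass without control A (adjusted p 0.0147 to 0.137 with 1 library left out).

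Among transcription factors of myeloid cells 14 of 41 rose and 3 fell, with 1 falling without control A and 0 without control B or day 28 B. In the fit to the 5 libraries alone 6 rose and 1 fell. Bhlhe40, a stress-responsive repressor, rose to 980.4, 764 and 658 CPM from 19.5 and 8.60 CPM (log2 fold change 5.84 ± 0.46, adjusted p = 1.05e-07). Id2, an inhibitor of E proteins, rose to 536, 488 and 854 CPM from 41.7 and 44.8 CPM (log2 fold change 3.85 ± 0.38, adjusted p = 1.14e-06). Runx2, known from bone, rose to 4.45, 10.4 and 16.5 CPM from 0.784 and 1.35 CPM (log2 fold change 3.26 ± 0.52, adjusted p = 0.000291). Of 34 tested cytokine and growth factor receptors 9 rose and 3 fell, with 2 rising without control B, and 3 rising and 1 falling in the fit to the 5 libraries alone. Met, the receptor for hepatocyte growth factor, rose to 17.7, 22.3 and 67.6 CPM from 0.131 and 0.749 CPM (log2 fold change 6.18 ± 0.79, adjusted p = 2.46e-05). Lifr, the receptor for leukaemia inhibitory factor, fell to 10.5, 14.2 and 70.1 CPM from 235 and 237 CPM (log2 fold change -2.90 ± 0.58, adjusted p = 0.00233).

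As background, MHC class II molecules present peptides to helper T cells. Of 17 tested members 2 rose and 1 fell, beside 6.57% and 3.99% of all genes tested. Without control A, control B, day 28 A or day 28 B, and in the fit to the 5 libraries alone, 1 rose and 0 fell. H2-Ab1, a class II beta chain, had 5119, 5457 and 6200.2 CPM against 6183 and 8966 CPM (log2 fold change -0.44 ± 0.50, adjusted p = 0.65), and Cd74, the invariant chain, 9819, 9791 and 17363 CPM against 11409 and 13444 CPM (log2 fold change -0.01 ± 0.41, adjusted p = 1). Ciita, the master regulator of these genes, had 38.8, 27.8 and 50.04 CPM against 96.9 and 49.7 CPM (log2 fold change -0.91 ± 0.52, adjusted p = 0.298). None of the 3 passed. Among co-stimulatory and checkpoint molecules 7 of 21 rose and 2 fell, with 1 falling without control A or day 28 B and 0 without control B or day 28 A. It was also 1 in the fit to the 5 libraries alone and with the replicate block, the length covariate or thinned counts. Cd274, the ligand PD-L1, rose to 163, 127 and 173 CPM from 22.3 and 14.5 CPM (log2 fold change 3.07 ± 0.44, adjusted p = 9.8e-05). Havcr2, the checkpoint receptor TIM-3, rose to 89.7, 111 and 157 CPM from 14.9 and 8.24 CPM (log2 fold change 3.37 ± 0.49, adjusted p = 0.000108).

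Several metabolite, complement and clearance genes changed in opposite directions within their lists. Of 29 tested scavenger and efferocytosis genes 10 rose and 5 fell, with 3 falling without control B. The rising members included Olr1, Cd36 and Msr1, which take up modified lipoproteins, and the falling ones Stab1, Cd163, Timd4 and Gas6. Mertk, a receptor for dying cells, had 119.9, 109 and 50.1 CPM against 117 and 71.2 CPM and did not pass (log2 fold change -0.01 ± 0.57, adjusted p = 1). Beside 6.57% and 3.99% of all genes tested, 4 of 24 tested complement genes rose and 4 fell. Without control A 2 rose, and without control B 1 rose and 1 fell. In the fit to the 5 libraries alone 0 rose, and 8 fell without the filter and 9 with DESeq2 or limma-voom. C4b fell to 30.4, 40.4 and 23.2 CPM from 1096 and 546 CPM (log2 fold change -4.71 ± 0.91, adjusted p = 0.00178).

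Among prostaglandin and leukotriene genes 5 of 23 rose and 3 fell, with 3 rising without control A or control B. Ptgs2, the inducible cyclooxygenase COX-2, rose to 171, 211 and 263 CPM from 1.502 and 2.55 CPM (log2 fold change 6.70 ± 0.80, adjusted p = 1.28e-05). Ptgs1, the constitutive COX-1, fell to 14.01, 8.37 and 10.98 CPM from 73.1 and 69.2 CPM (log2 fold change -2.68 ± 0.55, adjusted p = 0.00275). The same direction as Ptgs2 was seen in Ptges, the prostaglandin E2 synthase downstream of it, at 24.2, 7.59 and 32.0 CPM against 0.718 and 0.330 CPM (log2 fold change 5.42 ± 0.98, adjusted p = 0.000961). Ltc4s, leukotriene C4 synthase, fell to 7.996, 14.97 and 13.5 CPM from 68.7 and 115 CPM (log2 fold change -2.92 ± 0.58, adjusted p = 0.00233).

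Of 21 tested genes of extracellular ATP and adenosine 4 rose and 4 fell, and 2 rose and 1 fell in the fit to the 5 libraries alone. Nt5e, the enzyme CD73 that makes adenosine, had 107, 127 and 273 CPM against 0.0653 and 0.180 CPM (log2 fold change 10.20 ± 1.27, adjusted p = 1.97e-05). P2rx1, an ATP-gated channel, had 0 counts at day 28 against 1.502 and 2.31 CPM, at least 53.8-fold lower (adjusted p = 0.00195). P2ry12, an ADP receptor, fell to 15.3, 10.4 and 24.99 CPM from 85.6 and 97.0 CPM (log2 fold change -2.43 ± 0.47, adjusted p = 0.00186).

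Nuclear genes of respiration and of the ribosome were also counted. Of 74 tested oxidative phosphorylation genes 3 rose (0 without control A, without the filter or in the fit to the 5 libraries alone, and 1 without control B, day 28 A or day 28 B, with RLE scaling or with macrophage libraries only). Of 78 ribosomal protein genes 0 rose and 1 fell, and that fall was not called whichever library was left out. Among all genes tested 6.57% rose and 3.99% fell, so neither list exceeded the share of all genes called. Log2 fold changes were positive in 89.2% of oxidative phosphorylation and 82.1% of ribosomal protein genes, against 47.4% of all genes. The medians were 0.413 and 0.388, against -0.035 for all genes. Without control A they were 0.208 and 0.136, and without control B 0.741 and 0.674. Of 9 tested mitochondrially encoded genes 6 rose, 3 without control A and 0 without control B.

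Few genes set day 28 apart from day 14. Of 16260 genes tested 1 differed (0.00615%), and 1420 had an unadjusted p under 0.05. The gene was Zfp169, a zinc finger protein, which had 7.29, 7.87 and 2.51 CPM at day 28 and 0.335, 0.310 and 0.404 CPM at day 14 (log2 fold change 4.05 ± 0.62, adjusted p = 0.0341). It was named because it was the only gene called. With 1 library left out between 0 and 24 genes were called, 24 without day 28 C, and Zfp169 was among them only there. DESeq2 called 46 genes, limma-voom 79 and the analysis without the filter on low counts 252. Few calls do not show that the days were alike.

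Against day 2, the acute stage, 692 genes differed (4.26%), 371 higher (2.28%) and 321 lower (1.97%). The count ran from 137 to 1233 with 1 library left out. It was 166, 215 and 253 without day 2 A, B and C, and 165, 137 and 1233 without day 28 A, B and C. Of the 692, 96 were called in all 6. With the length covariate 70 genes were called, 29 higher and 41 lower, of which 56 were among the 692. The count was 397 with the replicate block, 1681 without the filter, 1928 with DESeq2 and 3021 with limma-voom. The length covariate is the slope of a library's expression on gene length. It was 0.143, 0.176 and 0.0378 at day 28 and -0.236, -0.164 and -0.243 at day 2, so it ran with these groups. The part of this trend in the differences from day 2 was not tested. Genes of MHC class II were higher at day 28 in 7 of 17 and lower in 0, beside 2.28% and 1.97% of all genes. These members were not recounted with 1 library left out or with the length covariate. Itgax had 1041, 518 and 78.6 CPM at day 28, 9.33, 2.26 and 14.5 CPM at day 2 and 19.8 and 11.8 CPM in the controls (log2 fold change against day 2 5.996 ± 0.80, adjusted p = 0.000341). Axl, a receptor for Gas6, had 484, 479 and 177 CPM at day 28, 8.57, 4.40 and 19.3 CPM at day 2 and 248 and 84.4 CPM in the controls (log2 fold change 5.17 ± 0.62, adjusted p = 0.000143). For Itgax the day 28 libraries exceeded both other groups, and for Axl the control libraries overlapped those of day 28 and exceeded those of day 2.

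Rhoj, a small GTPase known from endothelial cells, had 32.1, 15.9 and 3.82 CPM at day 28 and 0.616, 0 and 0.725 CPM at day 2 (log2 fold change 5.38 ± 1.13, adjusted p = 0.013). Tnfsf8, the ligand of CD30, had 185, 49.3 and 21.3 CPM and 1.70, 0 and 5.80 CPM (log2 fold change 5.21 ± 1.42, adjusted p = 0.0434). Leaving out day 2 A or day 28 A ended the call of Rhoj, and only without day 28 C was Tnfsf8 called, with adjusted p from 0.00423 to 0.0593 and from 0.0219 to 0.162 over the libraries left out. Saa3, an acute-phase protein, had 2.89, 6.57 and 33.8 CPM at day 28 and 5724, 2464 and 720.4 CPM at day 2 (log2 fold change -7.68 ± 1.06, adjusted p = 0.000418). The controls had 4.70 and 2.64 CPM of Saa3, near day 28 A and B and below day 28 C. Ly6g had 0 counts at day 28 and 20.6, 9.30 and 9.91 CPM at day 2 (adjusted p = 0.000341). Mrgpra2b, a receptor of the Mas-related family, had 0, 0.777 and 0 CPM and 48.1, 17.8 and 37.7 CPM (log2 fold change -6.97 ± 1.34, adjusted p = 0.00745). Ly6g defines neutrophils, and neutrophil markers at day 2 summed to 6962, 3283 and 4722 CPM against 122, 195 and 347 CPM at day 28, whose part in the differences from day 2 was not tested.

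**Figure D5:**
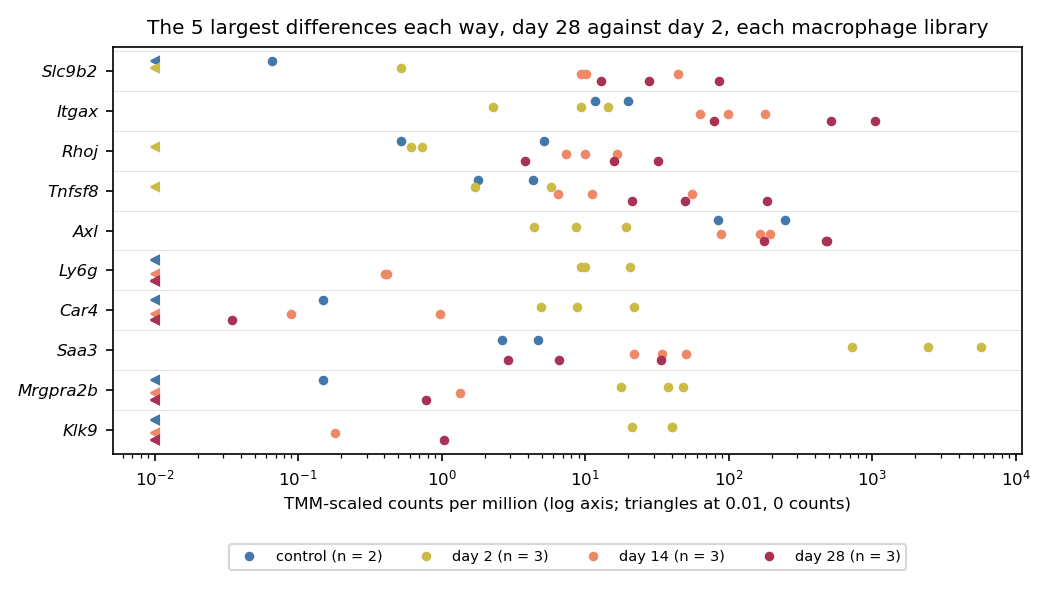
CPM (log axis) in every macrophage library of the 5 largest rises (top) and 5 largest falls (bottom) from day 2 to day 28; triangles at the left edge mark 0 counts. For the falling genes the control points (blue) lie with day 28, and for Itgax and Slc9b2 the day 28 points lie above those of day 2 and of the controls.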

How the data were processed

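Counts per gene and library were deposited by the authors as whole numbers for 47729 gene entries. Per the submitters' processing notes, the tools were bcl2fastq, the aligner STAR 2.4.1d and featureCounts of Subread 1.5.1, and the build was GRCm38. The annotation, the strand setting and how multi-mapping reads were treated are not stated in these sources. The amplification kit does not mark strand, so overlapping antisense genes cannot be told apart. Symbols came from GENCODE M21 for 47310 entries, and the other 419 held 0.095% of counts.

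All 23 libraries in 8 groups were fitted together, so that they share an estimate of the spread, with edgeR 4.0.16 (R 4.3.3, limma 3.58.1) by its quasi-likelihood F test after TMM scaling, and 16260 genes passed filterByExpr. A call needs a p under 0.05 after Benjamini-Hochberg adjustment over all genes tested. A prior count of 0.125 entered the log2 fold changes, and dividing their size by the root of F gave the SE. Where a group had 0 counts a bound was taken against 3 counts over the group, and a group with 1 to 3 counts is given by a ratio and a 95% interval from counting error. PCR reads are not independent molecules, so these cover counting error only. DESeq2 1.42.0, limma-voom, other scaling, no filter, thinned counts, a replicate block and leaving out each library were tried as alternatives, and a gene-length covariate was added after seeing the data. This covariate was each library's slope of log2 CPM, less the gene's mean, on log2 exon length. It was 0.337 and 0.0476 in controls A and B. The functions were run on simulated counts with known changes, as a check of the code. These counts held no shift of library C and no length trend, so they cannot show how those affect the calls. The p-values measure the spread between libraries, which are labelled as biological replicates.

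The members and gene lists were chosen with earlier results of these data known. Named genes were the 10 largest rises and falls against control, and 5 and 5 against days 14 and 2, with at least 10 CPM in the higher group and no overlap. Predicted genes, receptor segments, mitochondrially encoded and sex-linked genes were left out of these. In each list up to 4 called members with the smallest adjusted p, up to 2 in the other direction and defining members were named. Named outside this rule, after their values were seen, were Aldoc, Apoe, Bnip3, C1qa, Cd36, Cd74, Ciita, Clec7a, Egln3, Fabp5, Fn1, Fth1, Gapdh, Gclm, Gpi1, Gpnmb, H2-Ab1, Hif1a, Hmox1, Inhba, Irf7, Ldha, Lipa, Lyve1, Mertk, Mmp12, Pf4, Pgam1, Pgk1, Pkm, Retnla, Slc16a3, Tfe3, Tfeb, Trem1, Trem2, Vegfa and Zfp169. Promoters are RefSeq windows of GRCm38.p6 at the 5′-most start of each gene. Other starts were not searched, so a window without a motif does not cover them. Some genes that the rule picks are left out here.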

Additional observations from a re-analysis of the deposited data

Results flagged for a closer look

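These results compare the change from control at day 28 with that at another day. Since both days share the same controls, the controls cancel and the values are the differences between the days themselves.

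Between day 28 and day 14 the difference was past the threshold for 1 gene. It was Zfp169, 4.055 higher at day 28 on the log2 scale. Between day 28 and day 2 it was past the threshold for 692 genes. The 5 largest differences upward, in log2, were 7.686 for Slc9b2, a sodium and proton exchanger, 5.996 for Itgax, 5.38 for Rhoj, 5.207 for Tnfsf8 and 5.165 for Axl. The 5 largest downward were -11.291 for Ly6g, -9.384 for Car4, a carbonic anhydrase of the cell surface, -7.681 for Saa3, -6.972 for Mrgpra2b and -6.555 for Klk9, a kallikrein-related peptidase. Ly6g had 0 counts in every day 28 library and Car4 had 1 over all of them, so their values depend on the prior count and are no bounds. From the counts, Ly6g was at least 362-fold lower at day 28 with a floor of 3 counts over the group, and the ratio of day 2 to day 28 for Car4 was 1048, with a counting interval of 188 to 41469. Without some single libraries Car4 (adjusted p up to 0.111), Klk9 (up to 0.0705), Rhoj and Tnfsf8 did not pass, while Slc9b2, Itgax, Axl, Ly6g, Saa3 and Mrgpra2b passed without any 1 library.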

How the results depend on the processing

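Against control, 1717 genes were called, and RLE scaling (1694), no filter (2148), macrophage libraries only (1658), thinned counts (1622), the length covariate (2336) and DESeq2 (2509) stayed within 1.5 times of that. Fitting only the groups compared gave 693 and limma-voom 3134, of which 45.4% were higher against 62.3% of the 1717. With 1 library left out the count ran from 689 to 1880. Against day 14, the single call became 252 without the filter, 46 with DESeq2, 79 with limma-voom and 0 with only the groups compared, macrophages only, thinned counts, the length covariate or the replicate block, and 0 to 24 with 1 library left out. Against day 2, 692 became 1681 without the filter, 70 with the length covariate, 1928 with DESeq2, 3021 with limma-voom and 397 with the replicate block, and 137 to 1233 with 1 library left out. The cause of these shifts was not tested. Of 257 genes followed by the naming rule or in the text, 58 lost their call with only the groups compared, 46 without control A, 63 without control B, 26, 28 and 14 without day 28 A, B and C, 15 with the replicate block and 2 to 8 under the other settings except a prior count of 2 (0), and none reversed.

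The replicate letters are not described. Deviations of same-letter libraries from their group means correlated at 0.099 for control A with day 28 A and at -0.131 for control B with day 28 B. With 2 controls these deviations mirror each other, so the check says little, and the letters were not taken as pairs. With the replicate block 1395 genes were called against control. Depth limits values below the 3-count levels given in the report, most of all in control A.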

Other observations

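The alternative activation list held members that went opposite ways. Of 29 tested 7 rose and 8 fell, and 4 rose without control A or control B and 13 without the filter on low counts. Arg1 and Il1rn were among those that rose, with the values given in the report. Retnla, a secreted protein induced by interleukin-4, fell to 365, 109 and 397 CPM at day 28 from 4731 and 8918 CPM in the controls (log2 fold change -4.56 ± 0.97, adjusted p = 0.00402), and the lectin genes Clec10a and Mgl2 fell with log2 fold changes of -3.65 and -3.10. All 3 kept their calls when any 1 library was left out.

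Iron genes were also mixed. Of 23 tested 3 rose and 4 fell, beside 6.57% and 3.99% of all genes tested. The number rising was 0 without control A or control B and 1 without day 28 B, and 2 fell without control B. In a fit to the 5 libraries alone 0 rose and 2 fell, and 1 rose with the replicate block or thinned counts, 5 with the length covariate and 6 without the filter. Cp, ceruloplasmin, which oxidises iron for export, fell to 1.23, 3.71 and 3.72 CPM from 70.5 and 91.9 CPM (log2 fold change -4.81 ± 1.08, adjusted p = 0.00593). Slc40a1, the iron exporter ferroportin, stood at 4.12, 11.5 and 7.67 CPM against 29.1 and 46.1 CPM (log2 fold change -2.27 ± 0.65, adjusted p = 0.0285), and Slc40a1 did not pass without control A, control B, day 28 A or day 28 C (adjusted p 0.0352 to 0.226 with 1 library left out). Fth1, the heavy chain of ferritin, had 6983, 13699 and 15039 CPM against 2783 and 4711 CPM and did not pass (log2 fold change 1.67 ± 0.84, adjusted p = 0.231).

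Of 25 tested genes of ER stress and the ATF4 pathway 6 rose and 0 fell, with 3 rising in a fit to the 5 libraries alone and 1 falling without day 28 C. Ddit4, an inhibitor of mTOR signalling, rose to 9.84, 27.2 and 63.3 CPM from 0.718 and 0.180 CPM (log2 fold change 6.36 ± 1.06, adjusted p = 0.000442). Calr, the chaperone calreticulin, rose to 764, 654 and 893 CPM from 322 and 343 CPM (log2 fold change 1.21 ± 0.23, adjusted p = 0.0017). Beside 6.57% of all genes tested, 1 of 10 tested metallothionein and zinc genes rose. It was Slc39a14, a zinc and iron importer, at 100.03, 64.2 and 54.6 CPM against 22.3 and 9.32 CPM (log2 fold change 2.21 ± 0.71, adjusted p = 0.0494), and Slc39a14 did not pass without control A, control B, day 28 A or day 28 B (adjusted p 0.0488 to 0.337 with 1 library left out).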
